A study of Mus musculus with 10 samples.

Results

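The genes described here belong to the pigmented cells that lie against the retina: Tyrp1, Dct, Pmel, Mlana, Slc45a2, Gpnmb, Slc6a13, Best1 and Ttr. They were listed by name with their levels in these libraries already known, so those levels are given as a description without a test. Of the 9 genes, 6 were among the 11702 genes of the deposited gene table, and Mlana, Slc45a2 and Best1 were read from the deposited transcript counts. RNA of 10 female mouse retinas was sequenced as polyA libraries. The rd10 mice (B6.CXB1-Pde6b rd10/J) carry a mutation in Pde6b, a rod phosphodiesterase subunit, and lose their rods early in life. Every eye was injected with 1 μL into the vitreous on P10 and on P24, and the retina was taken on P36. The groups were WT with DMSO (W1 to W4), rd10 with DMSO (D1 to D3) and rd10 with 20 μM halofantrine (H1 to H3), halofantrine being an antimalarial drug. The labels give no strain for the WT mice and do not say whether each library is a separate animal, so p-values measure the spread between these libraries. They also name a batch without saying what it is: the libraries D3, H2 and H3 belong to batch 2 and all others to batch 1.

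The retinal pigment epithelium is a single layer of pigmented cells between the photoreceptors and the choroid. It regenerates retinal for the visual pigments, takes up shed photoreceptor outer segments and holds melanin in melanosomes. Pigmented melanocytes are also found in the choroid, and the ciliary body and iris carry pigmented epithelia. When a neural retina is dissected, pigmented cells can remain attached to it, and the labels do not say how the retinas were separated from them. In bulk RNA, fewer cells of a type and less RNA per cell cannot be told apart.

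One WT library went against its label. Pde6b was at 2699 to 2855 CPM (counts per 1000000 counts of the scaled library) in W1 to W3 and at 93.1 CPM in the library labelled WT W4, below the 125 to 387 CPM of the 6 rd10 libraries. The summed level of 8 rod genes was 68237 to 72133 CPM in W1 to W3, 2443 CPM in W4 and 3184 to 10112 CPM in rd10. W4 is therefore named by its label only, and the comparisons of the 6 genes with WT are given with and without it.

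Promoter sequences of the genes that varied most between libraries are shown because MITF, the regulator of pigment genes, binds an E-box, most often with the letters CATGTG, and OTX2, its partner in pigment epithelium, binds sites with the letters TAATCC. RefSeq (GRCm38.p6) gave windows for Tyrp1, Dct, Gpnmb, Slc6a13 and Best1, 5 of the 9 genes. Pmel, Mlana, Slc45a2 and Ttr had no window here. The 250 bases before the gene start are printed 5′ to 3′ on the strand of the gene, with these motifs in capitals on whichever strand they were found; on the opposite strand the first reads CACATG as printed, and the second motif reads GGATTA. They are Tyrp1 (chr4:80833963-80834212, plus strand), Dct (chr14:118052247-118052496, minus strand), Slc6a13 (chr6:121300038-121300287, plus strand), Gpnmb (chr6:49036268-49036517, plus strand) and, for comparison, Tyr (chr7:87493513-87493762, minus strand), the gene of tyrosinase.
Tyrp1: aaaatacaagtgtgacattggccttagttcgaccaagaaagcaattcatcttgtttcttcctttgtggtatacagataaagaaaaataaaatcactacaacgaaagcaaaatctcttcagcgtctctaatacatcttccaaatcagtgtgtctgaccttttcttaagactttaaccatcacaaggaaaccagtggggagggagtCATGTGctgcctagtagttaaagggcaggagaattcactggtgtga
Dct: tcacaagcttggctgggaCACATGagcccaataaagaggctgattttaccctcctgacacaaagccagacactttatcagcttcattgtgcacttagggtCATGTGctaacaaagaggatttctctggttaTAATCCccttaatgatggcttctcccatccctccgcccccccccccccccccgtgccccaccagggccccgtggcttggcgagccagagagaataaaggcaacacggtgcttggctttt
Slc6a13: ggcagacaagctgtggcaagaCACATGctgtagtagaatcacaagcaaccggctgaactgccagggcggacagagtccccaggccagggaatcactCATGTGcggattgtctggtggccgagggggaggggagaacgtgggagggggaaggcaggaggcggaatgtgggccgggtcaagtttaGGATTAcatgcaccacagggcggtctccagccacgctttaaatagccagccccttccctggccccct
Gpnmb: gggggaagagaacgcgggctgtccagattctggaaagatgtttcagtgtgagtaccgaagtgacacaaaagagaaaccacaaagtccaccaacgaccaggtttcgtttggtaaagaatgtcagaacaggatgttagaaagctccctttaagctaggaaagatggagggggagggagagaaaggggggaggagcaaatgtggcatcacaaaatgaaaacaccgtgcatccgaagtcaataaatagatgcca
Tyr: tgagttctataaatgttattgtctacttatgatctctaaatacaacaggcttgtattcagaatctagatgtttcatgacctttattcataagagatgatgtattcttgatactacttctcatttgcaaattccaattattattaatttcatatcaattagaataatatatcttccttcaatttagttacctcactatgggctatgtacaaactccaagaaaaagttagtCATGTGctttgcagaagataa

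On either strand, CATGTG was found in 12.3% of 32851 such windows of the mouse genome and TAATCC in 6.25%. The E-box variant CACGTG was found in 6.02% of windows and in none of those printed. Tyrp1 had CATGTG 46 bases before the start and Tyr had it 21 bases before the start, both inside the longer AGTCATGTG, which was present in 0.228% of windows. The windows of Rpe65 and Oca2, also read for comparison and not printed, did not hold the longer motif. Rpe65 had CATGTG at 239 bases and TAATCC at 42 bases, and Oca2 had CATGTG at 186 bases, all on the opposite strand. Dct had CATGTG at 150 bases on the strand of the gene and at 232 bases on the opposite strand, with TAATCC at 119 bases. The printed Slc6a13 window was the first of 3 that RefSeq gives for the gene. It had CATGTG at 154 bases and, on the opposite strand, at 229 bases. TAATCC was at 67 bases on the opposite strand. The other windows of Slc6a13 held neither motif. Gpnmb had none of these letters in its window, and Best1 had TAATCC at 227 bases only. A match says that the letters are present and does not show binding.

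Summed over the 6 genes of the gene table, the pigment transcripts differed 17.3-fold between the lowest and the highest library. The WT libraries W1 to W4 held 50.0, 43.7, 212 and 423 CPM. The rd10 DMSO libraries D1 to D3 held 757, 179 and 711 CPM, and the halofantrine libraries H1 to H3 held 246, 174 and 216 CPM. D1 and D3 were thus the highest of the 10 libraries, and D2, of the same group, was the seventh, between W3 and H2. As mean ± SD, the sums were 182 ± 179 CPM in WT (n = 4), 549 ± 321 CPM in rd10 DMSO (n = 3) and 212 ± 36.2 CPM in rd10 halofantrine (n = 3). D1 and D3 together held 89.1% of the rd10 DMSO sum. The highest sum was 4.23 times the lowest among the DMSO libraries and 1.41 times the lowest among the halofantrine libraries. Without W4 the WT mean was 102 CPM.

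**Figure D1:**
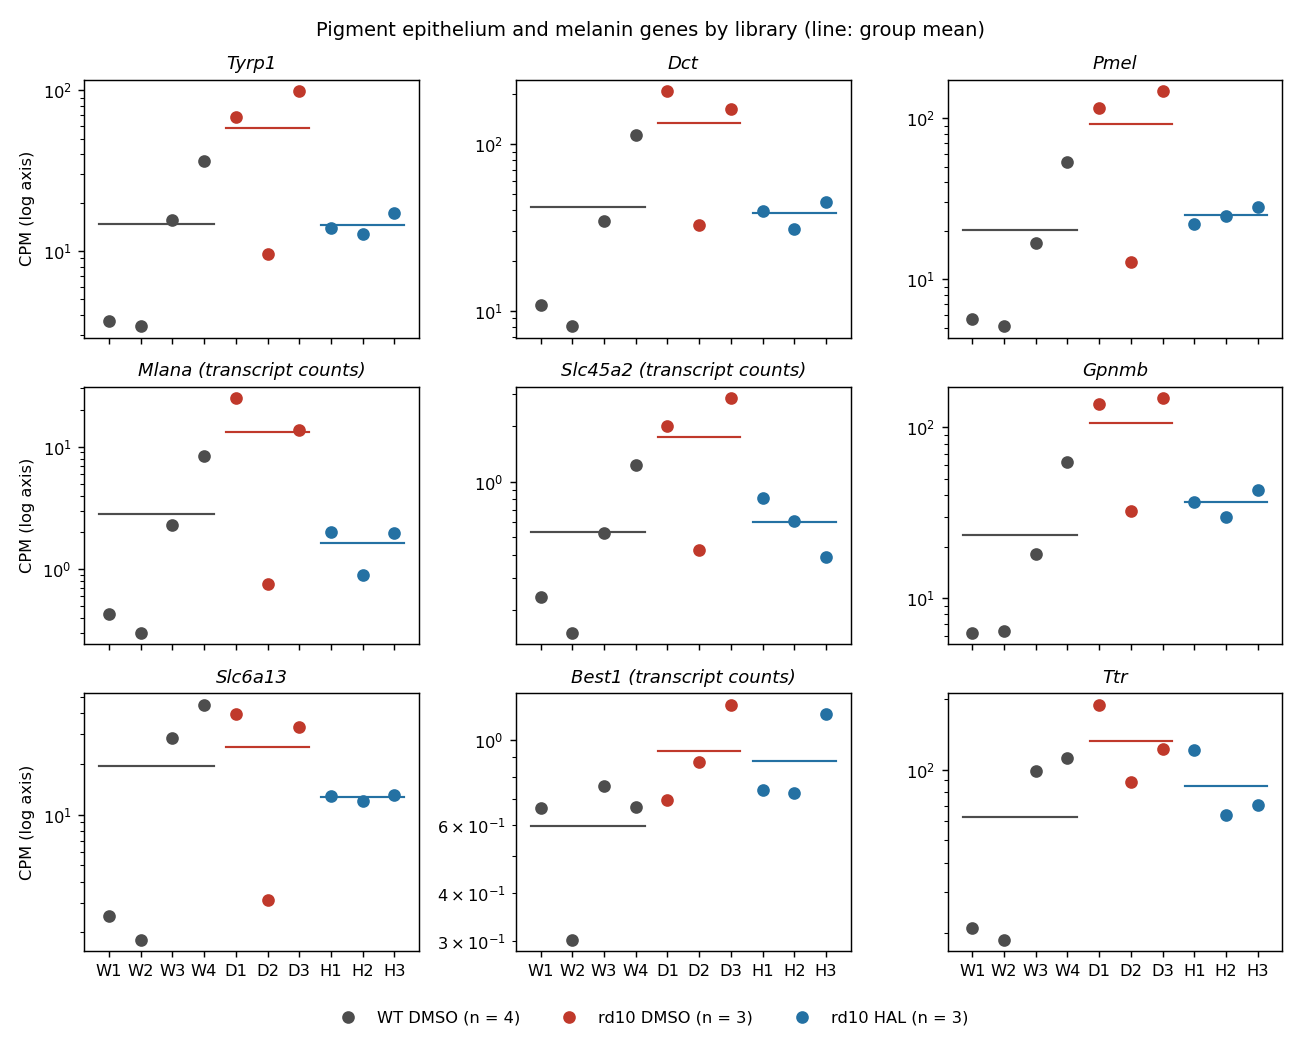
Level of each of the 9 genes (CPM, log axis, a scale of its own in each panel) in the 10 libraries, with 1 point per library and a line at the group mean. D1 and D3 lie above the 3 halofantrine libraries in all genes but Best1, D2 lies among or below them in every gene, and W4 lies above W1 to W3 in all genes but Best1.

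The first of these genes are enzymes of melanin synthesis. Dct, dopachrome tautomerase, was at 10.8, 8.12, 34.6 and 114 CPM in W1 to W4, at 207, 32.7 and 162 CPM in D1 to D3, and at 39.8, 30.9 and 44.8 CPM in H1 to H3. Tyrp1, the next enzyme of eumelanin synthesis, was at 3.65, 3.43, 15.5 and 36.5 CPM in WT, at 68.0, 9.58 and 98.2 CPM in rd10 DMSO, and at 13.8, 12.7 and 17.3 CPM in rd10 halofantrine. In both genes D1 and D3 stood above every other library, while D2 was within the halofantrine range for Dct and below it for Tyrp1. These values rest on 161 to 5050 counts of Dct and 68 to 1660 counts of Tyrp1 per library.

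The genes of the melanosome itself followed. Pmel, whose protein forms the fibrils on which melanin is laid down, was at 5.69, 5.14, 16.9 and 53.4 CPM in WT, at 117, 12.8 and 147 CPM in rd10 DMSO, and at 22.1, 24.8 and 27.9 CPM in rd10 halofantrine. Mlana, a small membrane protein of early melanosomes, was at 0.427, 0.302, 2.28 and 8.39 CPM in WT, at 24.9, 0.753 and 13.8 CPM in rd10 DMSO, and at 2.00, 0.901 and 1.98 CPM in rd10 halofantrine. D1 and D3 were the highest libraries for both, and D2 lay below every halofantrine library for both. Mlana had the widest range of the 9 genes, 82.3-fold over the 10 libraries and 33.1-fold among the DMSO libraries, on 6 to 608 counts. Slc45a2, a melanosomal transporter, was low, with 3 to 49 counts per library. It was at 2.01, 0.427 and 2.83 CPM in rd10 DMSO and at 0.814, 0.610 and 0.389 CPM in rd10 halofantrine, with 0.237, 0.151, 0.525 and 1.23 CPM in WT.

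Gpnmb, a glycoprotein of melanosomes and of lysosomes, is made by pigment cells and also by activated phagocytes. It was at 6.25, 6.43, 18.2 and 62.5 CPM in WT, at 137, 32.5 and 148 CPM in rd10 DMSO, and at 36.3, 30.0 and 42.7 CPM in rd10 halofantrine. D3 and D1 were its highest libraries, and D2 lay within the halofantrine range. Over the 10 libraries, Pearson's r of its log2 CPM was 0.97 with the summed melanin genes and 0.86 with the summed level of 17 phagocyte genes; over the 6 rd10 libraries these were 0.99 and 0.69. The phagocyte sum was 70.9 to 81.4 CPM in W1 to W3, 226 CPM in W4, 218 to 249 CPM in rd10 DMSO and 214 to 228 CPM in rd10 halofantrine. D2 held 218 CPM of phagocyte transcripts and D3 held 224 CPM, and Gpnmb was 4.55-fold higher in D3 than in D2. The phagocyte genes were not alike, however, and their sum does not show this. For the 8 in the gene table, r was taken with the mean log2 CPM of the pigment genes other than Gpnmb. Over the 6 rd10 libraries it ran from -0.27 for Cx3cr1 to 0.74 for Lyz2 and 0.90 for Spp1. The part of phagocytes in the Gpnmb levels was not tested. All libraries share their depth and composition across such correlations, which are a description.

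The genes of transport and secretion differed in part from the melanin genes. Slc6a13, a plasma membrane transporter of GABA and taurine also made in meninges and vessels, was at 2.51, 1.81, 28.5 and 44.5 CPM in WT, at 39.5, 3.14 and 33.0 CPM in rd10 DMSO, and at 12.9, 12.1 and 13.1 CPM in rd10 halofantrine. The library labelled WT W4 was its highest, and D2 was below every halofantrine library. Ttr, transthyretin, a carrier of thyroxine and of retinol, was at 21.1, 18.8, 98.4 and 112 CPM in WT, at 189, 88.2 and 123 CPM in rd10 DMSO, and at 121, 63.8 and 70.5 CPM in rd10 halofantrine. H1 nearly reached D3 for Ttr, and D2 lay within the halofantrine range. Best1, bestrophin, the chloride channel of the pigment epithelium's basolateral membrane, was at 0.302 to 0.759 CPM in WT, at 0.696, 0.878 and 1.23 CPM in rd10 DMSO, and at 0.740, 0.727 and 1.17 CPM in rd10 halofantrine. Its 6 to 39 counts per library showed no separation of D1 and D3 from the rest.

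Levels can be compared between genes only per length. Per kilobase of transcript, the median over the 10 libraries was 78.7 CPM for Ttr, 18.3 for Dct, 11.2 for Pmel, 10.6 for Gpnmb, 6.87 for Slc6a13, 6.27 for Tyrp1, 2.21 for Mlana, 0.360 for Best1 and 0.190 for Slc45a2. These medians pool the groups, and the order was not the same in every library. Ttr was above Dct, and Dct above Pmel, in 10 of 10 libraries. Each later neighbour in this order was reversed in at least 1 library: Pmel and Gpnmb in D2 and H1, Gpnmb and Slc6a13 in W3 and W4, Slc6a13 and Tyrp1 in 6 libraries, Tyrp1 and Mlana in D1, Mlana and Best1 in W1, and Best1 and Slc45a2 in W4, D1 and D3. From Pmel down, the order of neighbours therefore does not hold beyond the spread between libraries.

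The spread between libraries of 1 group was wide for these genes. On the log2 CPM scale the SD among the 3 DMSO libraries was 1.80 for Tyrp1, 1.44 for Dct, 1.94 for Pmel, 1.23 for Gpnmb, 2.02 for Slc6a13 and 0.55 for Ttr, against a median of 0.13 over 11702 genes. Between 97.3% and 99.8% of genes had a lower SD there. Among the halofantrine libraries the SDs were 0.23, 0.27, 0.17, 0.25, 0.064 and 0.50 in the same order, against a median of 0.081. Slc6a13 had an SD below the median of all genes in that group, while the other genes remained between the 85.9 and 98.6 percentiles. Among the 4 WT libraries the SDs were 1.39 to 2.34, with a median over all genes of 0.22. Without W4 they were 1.22 for Tyrp1, 1.10 for Dct, 0.94 for Pmel, 0.87 for Gpnmb, 2.14 for Slc6a13 and 1.33 for Ttr, with a median over all genes of 0.073.

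The comparison of halofantrine with DMSO in rd10 asks what the drug changed in the degenerating retina. edgeR's quasi-likelihood test called 0 of 11692 genes at an adjusted p of 0.05 (0.0%), with 557 genes (4.76%) under an unadjusted p of 0.05, and DESeq2 called 3 (ENSMUSG00000118841, ENSMUSG00000118866 and Gm42047, none of them a pigment gene). The fitted log2 fold changes of the 6 genes, with their standard errors, were -1.99 ± 0.70 for Tyrp1, -1.87 ± 0.73 for Pmel, -1.80 ± 0.58 for Dct, -1.54 ± 0.50 for Gpnmb, -0.97 ± 0.73 for Slc6a13 and -0.64 ± 0.33 for Ttr. All 6 were below 0, as were 51.7% of all genes, and their median was -1.67 against -0.0045 over all genes. From transcript counts the values were -3.01 ± 1.00 for Mlana, -1.48 ± 0.66 for Slc45a2 and -0.061 ± 0.35 for Best1. In fold terms the fitted levels were 3.97-fold lower for Tyrp1, 3.66-fold for Pmel, 3.47-fold for Dct and 2.90-fold for Gpnmb with halofantrine.

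These folds rested on D1 and D3 and not on D2. The libraries of both groups overlapped in all 6 genes: 0 of 6 had every halofantrine library below every DMSO library, which held for 6.18% of all genes. D1 and D3 lay above every halofantrine library in 6 of 6 genes and in 11.4% of all genes, a contrast on which the 6 genes were chosen. D2 lay below every halofantrine library for Tyrp1, Pmel and Slc6a13 and within their range for Dct, Gpnmb and Ttr. When D2 was left out, the log2 fold changes were -2.50 ± 0.19 for Tyrp1, -2.39 ± 0.14 for Pmel, -2.26 ± 0.17 for Dct, -1.97 ± 0.15 for Gpnmb, -1.51 ± 0.11 for Slc6a13 and -0.87 ± 0.31 for Ttr. In that fit 7 of 11697 genes passed the adjusted threshold (0.0598%), and the 5 that were lower (0.0427%) were Tyrp1, Pmel, Dct, Gpnmb and Slc6a13; the genes were chosen on this contrast, so the count is a description. When D1 was left out, the values were -1.86, -1.65, -1.32, -1.29, -0.46 and -0.30 in the same order, and when D3 was left out they were -1.38, -1.35, -1.62, -1.21, -0.71 and -0.69.

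**Figure D2:**
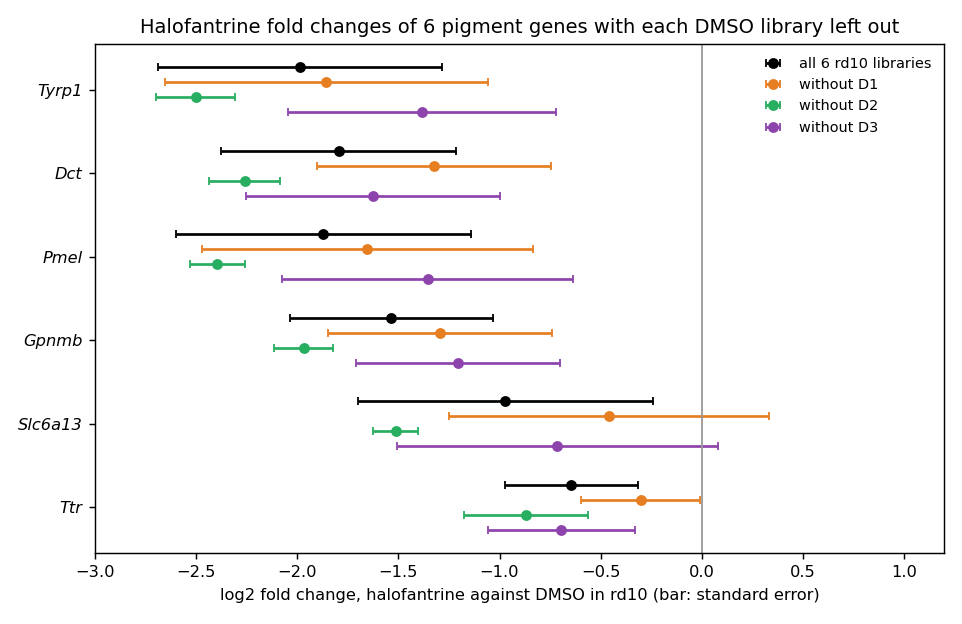
Fitted log2 fold change of halofantrine against DMSO in rd10 (x axis) for 6 pigment genes, with bars of 1 standard error, for all 6 rd10 libraries and with each DMSO library left out. Without D2 the 5 uppermost genes move to -2.50 to -1.51 with the shortest bars, and with D2 kept the bars are long.

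Each batch held both treatments, so the difference could be computed within batches. The titles of the libraries also carry set names: W1 to W3 share a set, as do D1, D2 and H1, and H2 and H3, while W4 and D3 each have their own. In batch 2 the set and the treatment cannot be told apart, nor can the set and the genotype in the comparison with WT. In batch 2, H2 and H3 were below D3 by 2.72 for Tyrp1, 2.12 for Dct, 2.47 for Pmel, 2.04 for Gpnmb, 1.38 for Slc6a13 and 0.87 for Ttr on the log2 CPM scale. In batch 1, the difference of H1 from the mean of D1 and D2 was -0.88 for Tyrp1, -1.05 for Dct, -0.81 for Pmel, -0.88 for Gpnmb, 0.20 for Slc6a13 and -0.087 for Ttr. That mean joined unlike libraries: H1 was lower than D1 by 2.29, 2.37, 2.40, 1.91, 1.61 and 0.64, and higher than D2 by 0.53, 0.28, 0.78, 0.16, 2.01 and 0.46. A fit that included batch gave log2 fold changes of -2.12 for Tyrp1, -1.84 for Dct, -2.03 for Pmel, -1.63 for Gpnmb, -1.05 for Slc6a13 and -0.52 for Ttr.

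Batch 2 was also compared with batch 1 in rd10, with treatment as a term. edgeR's quasi-likelihood test called 542 of 11698 genes (4.63%). The log2 differences of batch 2 from batch 1 were 0.79 ± 0.64 for Tyrp1, 0.77 ± 0.68 for Pmel, 0.42 ± 0.49 for Gpnmb, 0.32 ± 0.74 for Slc6a13, 0.20 ± 0.59 for Dct and -0.52 ± 0.28 for Ttr. Each was less than 2 standard errors from 0 in this fit. Without D2, the difference for Ttr was -0.75 ± 0.082, and Ttr was among the 212 genes called in that fit (1.81% of all genes), again only a description for a gene whose levels were known when it was listed. The 2 high DMSO libraries were 1 from each batch. The 8 rod genes were all higher in batch 2, with a median log2 difference of 1.45.

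The comparison of rd10 DMSO with WT DMSO asks how the degenerating retina differs from a healthy one. With all 7 DMSO libraries, edgeR's quasi-likelihood test called 0 of 11698 genes (0.0%), with 3108 (26.6%) under an unadjusted p of 0.05, and DESeq2 called 589. Without W4 edgeR called 7280 of 11696 genes (62.2%), 32.3% higher in rd10 and 29.9% lower. The log2 fold changes of rd10 against WT were 2.17 ± 1.03 for Pmel, 2.17 ± 0.91 for Gpnmb, 1.98 ± 1.01 for Tyrp1, 1.68 ± 0.99 for Dct, 1.08 ± 0.68 for Ttr and 0.37 ± 1.21 for Slc6a13. All 6 were above 0, as were 48.2% of all genes. Without W4 they were 3.34 ± 0.89, 3.38 ± 0.66, 2.99 ± 0.91, 2.93 ± 0.77, 1.55 ± 0.64 and 1.23 ± 1.14 in the same order. Of the 6 genes, 4 (Gpnmb, Dct, Pmel and Tyrp1) were then among the 32.3% called higher, which is a description, since the genes were listed with these levels known. From transcript counts with all libraries, Mlana was at 2.16 ± 1.25, Slc45a2 at 1.62 ± 0.80 and Best1 at 0.60 ± 0.38. The WT mean with and without W4 was 2.85 and 1.00 CPM for Mlana, 0.535 and 0.305 CPM for Slc45a2, and 0.598 and 0.575 CPM for Best1.

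The WT libraries were themselves unlike. W3 held 4.85 times the summed level of W2, and its Slc6a13 level was above that of D2 and of every halofantrine library. Gpnmb was the 1 gene of 6 in which every rd10 DMSO library was above each of W1 to W3, a separation seen in 33.7% of all genes in that direction. For the other 5 genes D2 lay below W3. With W4 included, 0 of 6 genes separated the groups, against 4.6% of all genes with rd10 higher. Every halofantrine library was above W1 and W2 in 6 of 6 genes, as it was in 39.7% of all genes.

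The 6 genes rose and fell together over the libraries. Pearson's r of log2 CPM over the 10 libraries was 0.80 to 0.99 in their 15 pairs, with a median of 0.89, and over the 6 rd10 libraries it was 0.60 to 0.99 with a median of 0.87. Their proportions were not constant. The ratio of Tyrp1 to Dct was 0.293 in D2 and 0.605 in D3, and that of Pmel to Dct was 0.392 in D2 and 0.903 in D3. The ratio of Ttr to Dct ran from 0.755 in D3 to 3.05 in H1, and that of Slc6a13 to Dct from 0.0958 in D2 to 0.822 in W3. Over the 10 libraries Ttr had nearly the same r with the summed visual cycle genes (0.90) and with the summed melanin genes (0.89). Over the 6 rd10 libraries these were 0.98 and 0.75.

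The visual cycle genes are the other signature of pigment epithelium. Rpe65 is the isomerase that makes 11-cis-retinol, Lrat makes the retinyl esters it uses, Rdh5 oxidises its product and Stra6 takes up retinol. Their summed level was 23.2, 19.8, 94.8 and 60.6 CPM in W1 to W4, 89.4, 45.7 and 52.8 CPM in D1 to D3, and 61.1, 33.8 and 33.1 CPM in H1 to H3. The highest sum was in W3, not D1 or D3, and the range was 4.78-fold. By gene, Rpe65 and Lrat were highest in W3. Rdh5 was highest in D1 (32.4 CPM, against 25.2 CPM in W3), as was Stra6 (23.8 CPM, against 20.7 CPM in W3). The sum of 9 melanin genes (Tyrp1, Dct, Pmel, Mlana, Slc45a2, Tyr, Oca2, Gpr143 and Slc24a5) was 23.9, 20.3, 86.1 and 236 CPM in W1 to W4, 458, 67.6 and 459 CPM in D1 to D3, and 91.3, 80.2 and 104 CPM in H1 to H3, a range of 22.6-fold. Both sums were put together after their values were seen, and neither was tested.

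Melanin transcripts therefore did not keep a fixed proportion to visual cycle transcripts. Their ratio was 1.03, 1.02 and 0.908 in W1 to W3 and 3.89 in W4. It was 5.12, 1.48 and 8.69 in D1 to D3, and 1.49, 2.37 and 3.15 in H1 to H3. W3 and D1 held nearly the same visual cycle level, while their melanin sums were 86.1 and 458 CPM. Rpe65 alone was at 30.0 CPM in W3 and at 18.1 CPM in D1, while the ratio of Dct to Rpe65 was 1.15 in W3 and 11.5 in D1.

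**Figure D3:**
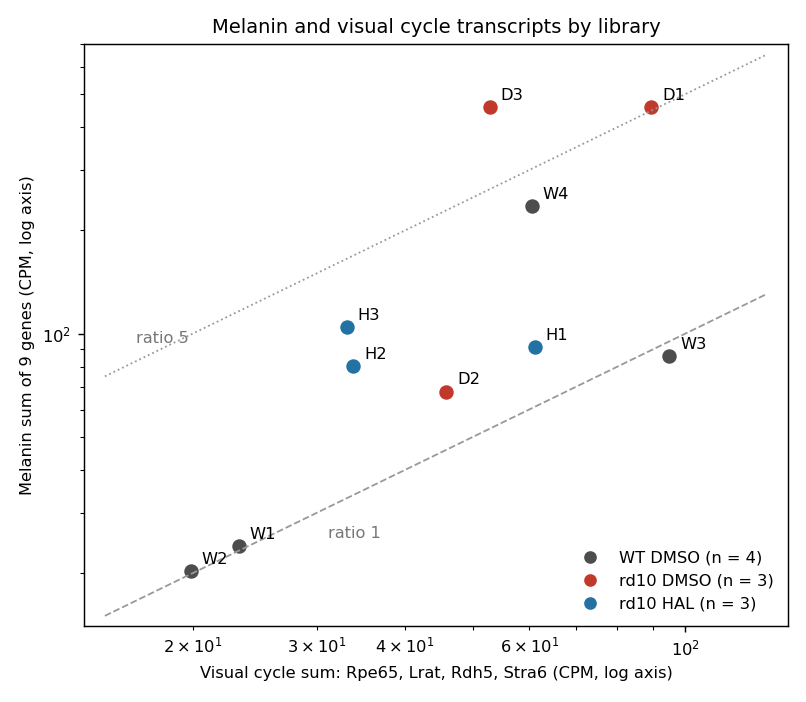
Summed level of 9 melanin genes (y axis, CPM, log) against that of 4 visual cycle genes (x axis, CPM, log), 1 point per library, with lines where the ratio is 1 and 5. W1, W2 and W3 lie at the line of ratio 1, D1 and D3 at or above the line of ratio 5, and D2 and the halofantrine libraries between the lines.

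The wider list of 37 other pigment epithelium genes, melanosome genes included, was read from the same fits. It too was chosen with earlier results of these data known, so its counts and p-values describe these libraries and are not independent evidence. Of the 20 in the gene table, edgeR's quasi-likelihood test called 0 with halofantrine and DESeq2 called 0. Over all 11692 genes these tests called 0 and 3. In edgeR's quasi-likelihood test none of the 20 had an unadjusted p under 0.05, against 4.76% of all genes. Their smallest adjusted p, 0.883, was also the smallest over all genes in that fit. The median log2 fold change of the 20 was -0.10, and 15 of 20 were below 0, against 51.7% of all genes. Rpe65 was at -0.53 ± 0.36, Lrat at -0.74 ± 0.44, Rdh5 at -0.66 ± 0.41, Stra6 at -0.38 ± 0.27 and Rgr, a retinal photoisomerase also made by Müller glia, at -0.78 ± 0.42 (adjusted p = 0.883 for each in edgeR's quasi-likelihood test). Mitf, which encodes MITF, was at -0.046 ± 0.14.

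Most of the other melanosome genes were measured only by their transcript counts. In the fit on transcript sums, 11 were tested, 0 were called (0.0% of 17891 genes) and 5 had an unadjusted p under 0.05, against 4.7% of all genes. These were Mlph at -1.84 ± 0.71, Tspan10 at -1.69 ± 0.71, Slc24a5 at -1.62 ± 0.52, Gpr143 at -1.50 ± 0.49 and Tyr at -1.34 ± 0.43 (adjusted p = 0.910 for each in edgeR's quasi-likelihood test). Of these, Tyr is tyrosinase, the first enzyme of melanin synthesis, Slc24a5 and Gpr143 are a cation exchanger and a receptor of the melanosome, and Mlph links melanosomes to myosin. The median over the 11 genes was -0.67 against -0.010 over all genes, and 9 of 11 were below 0, against 52.9% of all genes. In 9 of the 11 the highest library was D1 or D3; the exceptions were Myrip, highest in W3, and Mc1r, highest in W2.

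In rd10 DMSO against WT, 0 of the 20 other genes were called by edgeR's quasi-likelihood test, 3 of 20 had an unadjusted p under 0.05 against 26.6% of all genes, and DESeq2 called 1 of 20, Myrip, which was lower, against 5.04% of all genes. Without W4, 12 were called, 9 of 20 higher and 3 of 20 lower, against 32.3% and 29.9% of all genes. Among the higher ones were Efemp1 (1.68), Mertk (1.14), Ezr (1.07), Itgb5 (0.92), Rab27a (0.63), Rlbp1 (0.41), Rdh10 (0.40) and Rrh (0.35, log2 fold changes). Of these 9, 7 are also made by Müller glia, phagocytes or stroma, as are 11 of all 20 genes, and Rab27a and Rrh are the exceptions in the list. The lower ones were Aqp1 (-2.04), a water channel also made by amacrine cells, Myrip (-1.36), a melanosome linker, and Otx2 (-0.42), which photoreceptors and bipolar cells also express. Rpe65 was at 0.065 ± 0.80 with all libraries (adjusted p = 0.955 in edgeR's quasi-likelihood test), Lrat at 0.33 ± 0.70 (adjusted p = 0.735) and Rdh5 at 0.40 ± 0.50 (adjusted p = 0.550). Rpe65 was at 0.11 ± 0.83 without W4 (adjusted p = 0.919), Lrat at 0.48 ± 0.72 (adjusted p = 0.584) and Rdh5 at 0.58 ± 0.51 (adjusted p = 0.346), also in edgeR's quasi-likelihood test. Between batches, Aqp1, Krt18 and Mertk were higher in batch 2 and Rlbp1 was lower, 4 of 20 genes against 4.63% of all genes.

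Markers of other tissues moved with the pigment genes in part. The summed level of 8 stromal genes of choroid, sclera and meninges was 26.6, 32.2 and 46.1 CPM in W1 to W3, 97.6 CPM in W4, 124, 74.7 and 135 CPM in D1 to D3, and 81.5 to 87.4 CPM in the halofantrine libraries. D1 and D3 were the highest, as for the melanin genes, and D2 the lowest of the rd10 libraries. D1 and D3 were the 2 highest libraries for 4 of the 8 genes (Col3a1, Dcn, Lum and Mgp). Of the other 4, Col1a1 was highest in H3, Col1a2 in D1 followed by W4, Ogn in W4, and Pdgfra in D3 followed by H1. Dcn, decorin, a collagen-binding proteoglycan chosen like Lum after its values were seen, was at 12.5 and 23.6 CPM in D1 and D3 and at 0.358 to 3.15 CPM in the other 8 libraries. Lum, lumican, was at 2.29 and 3.44 CPM in D1 and D3 and at 0.0299 to 0.326 CPM elsewhere. The part of attached pigmented or stromal tissue in the pigment gene levels was not tested. All 8 stromal and all 6 pigment genes had counts in every library.

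**Figure D4:**
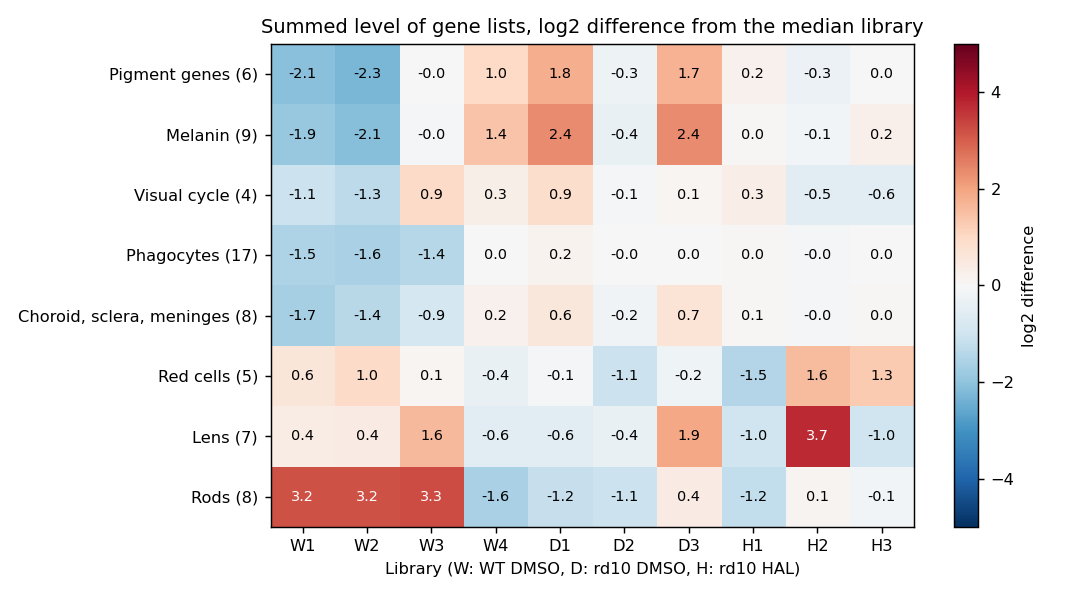
Summed level of 8 gene lists in the 10 libraries, as the log2 difference from the median library of each list (colour and printed value). The pigment, melanin and stromal rows are highest in D1 and D3, the phagocyte row is low only in W1 to W3, and the rod row separates W1 to W3 from W4 and the rd10 libraries.

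Lists of lens and red blood cells did not follow D1 and D3. The lens genes summed to 25.8 CPM in H2 and to 0.963 to 7.38 CPM in the other libraries. The red cell genes summed to 104 CPM in H2 and 86.7 CPM in H3, against 12.7 to 68.2 CPM in the other libraries.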

How the data were processed

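RNA was from 10 mouse retinas. The authors prepared stranded TruSeq libraries, pseudoaligned reads with Kallisto to Ensembl mouse transcripts (GRCm39 per the submitters' processing notes) and deposited estimated counts per transcript (275112) and per gene (11702). The authors' deposited CPM values, a signal scaled by 1 factor per library, served as an alternative scaling. A deposited table of the halofantrine comparison (log2 fold changes, p-values, scores) was not used.

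Counts on genes were 15512212 to 38160436 per library. The expected counts were rounded, filtered by filterByExpr, scaled by TMM and tested with edgeR 4.0.16 (quasi-likelihood, Benjamini-Hochberg over all genes tested) in R 4.3.3, with DESeq2 1.42.0 as an alternative. Fits were tested on simulated data. CPM are counts divided by the TMM-scaled library size. Log2 CPM used a prior count of 2, and standard errors came from the F statistic. GENCODE M21 assigned 133857 transcripts to genes, 97.4% to 97.7% of counts, for genes absent from the gene table. The 9 genes, the gene lists and the naming rule were chosen with earlier results of these data known. The genes named are the 9 genes, called genes of the other list, those needed to describe a role or list, and the 8 genes most correlated with the mean log2 CPM of the pigment genes other than Gpnmb.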

Additional observations from a re-analysis of the deposited data

Results flagged for a closer look

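Among 18 results checked in the 4 WT libraries, the summed level of phagocyte genes set W4 apart, with a gap to the nearest library of 0.933 of the group's range; this exceeds Dixon's critical value for 4 samples. The summed level of rod genes set it apart as well, with a gap of 0.944 of the range. Chance alone marks about 1 in 20 groups in this way. W4 held 226 CPM of phagocyte and 2443 CPM of rod transcripts, the former within and the latter below the range of the rd10 libraries. None of the 6 pigment genes passed this mark in WT.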

How the results depend on the processing

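The log2 fold changes of the 6 genes with halofantrine kept their sign in 72 of 72 refits, between -2.50 and -0.30. In rd10 against WT they kept it in 76 of 78 refits, between -0.11 and 3.38. The sign changed for Slc6a13, to -0.11 without D1 and -0.0061 without W2. Between batches they kept it in 66 of 72 refits, between -0.86 and 1.56, and the exceptions were Dct, Slc6a13 and Gpnmb, at -0.25 to -0.0016. The number of genes called with halofantrine was 0 in edgeR, 3 in DESeq2 and 0 to 7 with 1 library left out (7 without D2, 1, Gm45837, without D1). In rd10 against WT it was 0 in edgeR, 589 in DESeq2, 1 (Gm6361) from transcript sums and 0 to 7280 with 1 library left out (7280 without W4). Of the other pigment epithelium genes, DESeq2 then called 1, and leaving out 1 library gave 0 to 12 (12 without W4). Between batches 542 genes were called in edgeR, 66.6% of them higher in batch 2, against 1419 in DESeq2 (49.4% higher), 365 from transcript sums, 0 with all 10 libraries, 218 without a treatment term (79.8% higher) and 91 to 2638 with 1 library left out (91 without D3, 2638 without H1, 41.0% higher, and 212 to 217 without D1, D2, H2 or H3). Of the other pigment epithelium genes between batches, 4 were called in edgeR, 9 in DESeq2, 0 with all 10 libraries and 0 (without H3) to 6 (without H1) with 1 library left out. The cause was not tested. The summed levels moved by less than 1 SD under other scalings. No paired analysis was possible because the replicate numbers used here only name the libraries and pair none. Depth limits Slc45a2 and Best1, with at most 49 counts in a library, and Mlana in W1 and W2, with 9 and 6 counts.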

Other observations

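The genes whose log2 CPM followed the mean of Tyrp1, Dct, Pmel, Slc6a13 and Ttr most closely over the 10 libraries were Angptl2 (Pearson's r = 0.98), Sfrp1 (0.98), Wls (0.98), Fam129a (0.97), Islr (0.97), Ccnd2 (0.97), Scpep1 (0.97) and Fbn1 (0.97). Over the 6 rd10 libraries their r was 0.93 to 0.98. Fbn1, fibrillin of elastic microfibrils, was at 116, 44.4 and 147 CPM in D1 to D3 and at 65.4 to 81.9 CPM in the halofantrine libraries. Islr was at 18.1, 3.11 and 10.1 CPM in D1 to D3 and at 3.52 to 4.58 CPM in the halofantrine libraries. Angptl2, a secreted glycoprotein, was at 15.8, 3.21 and 17.3 CPM in D1 to D3 and at 3.55 to 5.93 CPM with halofantrine. D2 was thus low for each of these 3 genes as well. In these likeness values the libraries share their depth and composition, and the genes were picked for the likeness itself.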
